A study of Homo sapiens with 7 samples.

Results

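The genes described here are those of the cytosolic ribosomal proteins, measured by RNA-seq in human embryonic stem cells (hESCs) that were made to express the histone demethylase JMJD3c. A gene was a member if its symbol had the form RPL, RPS, RPLP or RPSA with its number and, where present, an A, X or L ending, if its row lay on a chromosome, and if it was not an RPS6K kinase. This rule found 85 of the 22670 genes in the deposited values (20187 of them on chromosomes), 52 of the large and 33 of the small subunit. A further 19 rows with such names lie on alternate or patch sequences and were not members.

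Each of the 7 conditions had 1 library, so the differences below could not be checked against replicates and were not tested. JMJD3c-hESCs were SEES-3 hESCs, an established line, that constitutively expressed the reverse Tet-transactivator and carried HA-tagged JMJD3c with a nuclear localization signal in a piggyBac vector under a Tet-responsive element, with IRES-βgeo and puromycin resistance. Their untreated sample was Day 0, and doxycycline (Dox, 1 µg/ml) was then given for 1, 2, 3 or 4 days. JMJD3c mut-hESCs carried the same construct with a point mutation that removes catalytic activity and gave an untreated sample and a sample after 4 days of Dox. Both lines were stable clones picked by puromycin selection and grown without feeders in StemFit AK-03 on iMatrix-511, so clone and transgene cannot be told apart in comparisons between the lines. KDM6B, the gene of JMJD3, whose value includes transgene reads, was listed at 3.45 FPKM (fragments scaled to exon length and to the number of mapped reads) at Day 0, at 158 to 282 FPKM on Days 1 to 4, and at 2.40 and 454 FPKM in the mutant line without and with Dox. The mapped reads per library, inferred from the spacing of the lowest values above 0, numbered 3550000 at Day 0, the shallowest library, and up to 7300000 in the untreated mutant line. All 4 hESC markers examined (POU5F1, SOX2, NANOG and LIN28A) were expressed in every library, with POU5F1 between 619 and 841 FPKM and SOX2 between 65.9 and 136 FPKM. They were nevertheless all lower than Day 0 on each day of Dox, with a median log2 fold change (of FPKM plus 1) of -0.12 at Day 1 and -0.33 at Day 4, where 3 of the 4 had Cufflinks 95% intervals that did not overlap and SOX2 was below a ratio of 0.5. With Dox in the mutant line all 4 were lower as well, with a median of -0.16 and 3 with intervals apart. Among all genes over 4 FPKM in either sample, 55.2% were lower at Day 4 and 49.1% with Dox in the mutant line. At Day 4, 7% of them were lower with intervals apart (23.8% of those over 100 FPKM) and 7.56% were below a ratio of 0.5. In the mutant line 1.68% were lower with intervals apart (6.27% of those over 100 FPKM). At Day 4 the summed level of 7 mesoendoderm markers (SOX17, FOXA2, GATA4, GATA6, EOMES, T and MIXL1) was 176 FPKM, against 5.49 FPKM at Day 0 and 9.32 and 6.90 FPKM in the mutant line. At Day 1 it was already 14.9 FPKM, with 5 of the 7 markers higher than at Day 0 and 0 lower. The part of these marker changes in the results on Days 1 to 4 was not tested.

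Ribosomal proteins assemble with ribosomal RNA into the small subunit, which reads the mRNA, and the large subunit, which joins amino acids and releases the new chain through an exit tunnel. Each protein is present once per ribosome apart from the stalk proteins, and cells make them in matched amounts, so their genes are among the most highly expressed of growing cells such as hESCs. Most of their mRNAs begin with a C and a run of pyrimidines, the 5′ terminal oligopyrimidine (TOP) tract, through which mTOR signaling controls their translation.

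The start-site sequences show what these genes share apart from their names. Each window below, from the RefSeq promoter table on GRCh38.p14, holds 15 bases before and 15 bases from the listed start, on the strand of the gene, and the capitals mark the pyrimidine run that begins at the start.
RPLP0: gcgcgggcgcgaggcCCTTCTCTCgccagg
RPL11: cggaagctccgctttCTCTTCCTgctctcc
RPS19: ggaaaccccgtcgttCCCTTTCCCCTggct
RPS3: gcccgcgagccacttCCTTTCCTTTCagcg
RPL37A: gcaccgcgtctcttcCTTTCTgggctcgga
RPL41: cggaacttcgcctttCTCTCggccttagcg
RPL22: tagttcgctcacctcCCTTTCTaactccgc
RPL22L1: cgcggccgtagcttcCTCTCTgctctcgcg
RPS27L: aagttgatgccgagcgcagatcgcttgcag
The first 3 belong to a stalk protein, a 5S-particle protein and a Diamond-Blackfan anemia protein, the next 3 to members of very high level, and the last 3 to a gene and paralogs that are compared further on. The windows lie at chr12:120201097-120201126 (minus strand), chr1:23691791-23691820 (plus), chr19:41860240-41860269 (plus), chr11:75399503-75399532 (plus), chr2:216498829-216498858 (plus), chr12:56116618-56116647 (plus), chr1:6199581-6199610 (minus), chr3:170870181-170870210 (minus) and chr15:63157463-63157492 (minus), in the same order. RPS3 and RPS19 have the longest runs printed here, 11 bases each, and RPL41 has the shortest, 5 bases. RPS27L has no such run at its listed start. Of the 85 members, 67 matched the table. A C followed by 4 bases that are each C or T, read on the strand of the gene at a listed start only, was present in 47 of the 67 (70.1%), against 1404 of all 27305 genes in the table (5.14%). Among 12 matched genes that are known for a TOP tract but lie outside the family, 11 had it. Among the members not matched were RPS15A, RPS2, RPL23A, RPL8, RPL39L, RPL37, RPL30, RPS20, RPL7, RPL5, RPL23 and RPL3L.

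In untreated JMJD3c-hESCs the 85 genes summed to 85620 FPKM, which was 16.1% of the FPKM of all genes. In such bulk samples, fewer cells of a type and less RNA per cell cannot be told apart. The sum was lower on every day of Dox, at 70402, 71539, 72576 and 68425 FPKM on Days 1 to 4, or 13.5% to 14.4% of all FPKM. In the mutant line the sum was 52563 FPKM without Dox and 50148 FPKM with Dox, which was 11.4% and 10.8%. The difference between the untreated samples of the lines was therefore larger than that between the untreated and the 4-day Dox sample of either line. The ratio of the large-subunit sum to the small-subunit sum stayed between 1.30 and 1.32 in the JMJD3c line and was 1.254 and 1.255 in the mutant libraries. Mitochondrially encoded genes, which have a share of the same total, held 10.2% of all FPKM at Day 0, 11.8% to 12.8% on Days 1 to 4, and 9.23% and 10.8% in the mutant line. Their part in the share of the ribosomal protein genes was not tested.

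**Figure D1:**
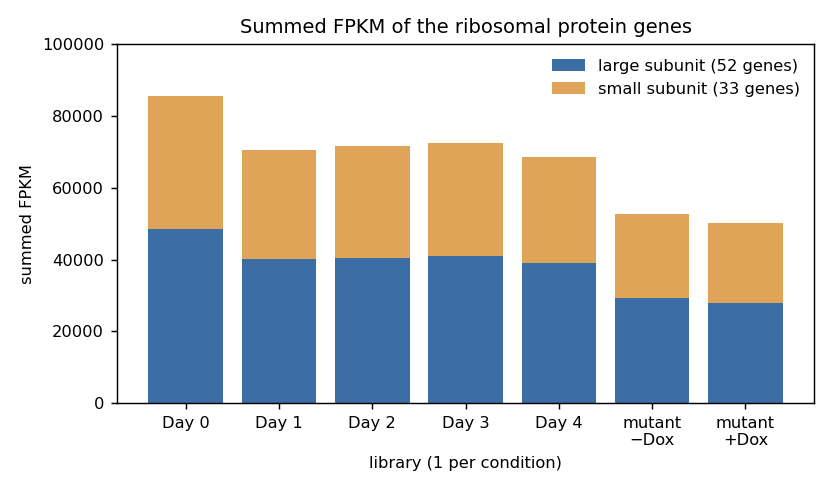
Summed FPKM of the 52 large-subunit genes (blue) and the 33 small-subunit genes (orange) in each of the 7 libraries, 1 per condition, so there are no error bars. The bar of Day 0 is the tallest at 85620 FPKM, Days 1 to 4 lie between 68425 and 72576 FPKM, and the mutant bars, at 52563 and 50148 FPKM, are nearly equal.

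The family spanned a wide range of levels. RPL37A, a zinc-finger protein of the large subunit (ENSG00000197756, hg19 chromosome 2, 217362912 to 217443903), had the highest mean level, with 3126, 2380.4, 2802, 2658 and 2606 FPKM on Days 0 to 4 and 1171 and 1211 FPKM in the mutant line without and with Dox. It was highest at Day 0, and both mutant values lay below every value of the JMJD3c line. RPS3, which sits where mRNA enters the small subunit (ENSG00000149273, chromosome 11, 75110530 to 75133324), came next, with 2794, 2362, 2269, 2291 and 2133 FPKM on Days 0 to 4 and 1752 and 1542 FPKM in the mutant line. RPL41, RPS14 and RPS19 followed, with means of 1964, 1875 and 1791 FPKM over the 7 libraries. RPL41 (ENSG00000229117, chromosome 12, 56510370 to 56511727) has the shortest coding sequence of the family, 75 bases. In all, 31 members had a mean over 1000 FPKM and 54 a mean over 500 FPKM.

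At the low end, RPL10L had 0.513 FPKM at Day 2 and was listed at 0 elsewhere, and RPL3L at no more than 0.284 FPKM in any library. These paralogs are known from testis and from striated muscle. RPS27, RPL36A and RPL21 were the next lowest, at 0 to 5.08, 2.61 to 5.53 and 5.95 to 9.95 FPKM over the 7 libraries. All 3 encode ribosomal proteins that every cell uses, and GENCODE release 44 annotates 30, 52 and 133 pseudogenes named after them. Outside the paralogs, 8 members had a mean under 100 FPKM, with a median of 25 annotated pseudogenes per gene, against 13 for the other 69 members. Over all 85 members the rank correlation of pseudogene count and mean FPKM was -0.20 (Spearman's rho; Pearson's r 0.05), a description across genes that share the libraries. RPSA, the laminin-receptor protein of the small subunit, was listed at 394 to 553 FPKM, while the row of its pseudogene RPSAP58 was listed at 1360.0 to 1522 FPKM. Levels of members that share sequence with such copies are therefore uncertain, and how reads were divided among the copies was not tested.

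The first question was what Dox-induced JMJD3c did to these genes. At Day 4, 80 of the 85 members were lower than at Day 0, 4 were higher and 1 was listed at 0 in both. The median log2 fold change, of FPKM plus a pseudocount of 1, was -0.33 (middle 50% of members from -0.43 to -0.20), a ratio of 0.794. The median of the 10247 genes that exceeded 4 FPKM at Day 0 or Day 4 was -0.06, and 55.2% of them were lower at Day 4. Genes of high level leaned the same way: among the other genes over 100 FPKM, 62.8% were lower and the median was -0.12, against -0.33 for the 72 members above that level. Large-subunit and small-subunit members had medians of -0.36 and -0.30.

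The Cufflinks 95% intervals, which cover the estimate within 1 library and not the variation between cultures, gave a second view. For 48 members the Day 4 interval lay wholly below that of Day 0, and for 0 wholly above it. Among all genes tested, 7% were lower in this sense and 5.15% higher. Intervals are narrow where levels are high, so the nearer background is the 870 genes with more than 100 FPKM, of which 23.8% were lower and 12% higher; all 48 members belong to these. For 16 members the FPKM lay outside its own interval in at least 1 library, and for 9 of them, among them RPL18, RPL4 and RPS12, in all 7, so this count describes intervals rather than FPKM for those genes. Without these 16 members the median at Day 4 was -0.33.

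The difference was already present at Day 1. On Days 1, 2 and 3 the members' median log2 fold change against Day 0 was -0.27, -0.26 and -0.23, with 77, 79 and 77 members lower. Over all genes tested the medians were -0.03, -0.05 and -0.01, and 54.2%, 55.2% and 51.2% were lower. Among the other genes over 100 FPKM the lean was stronger than at Day 4 on the first 2 days, with 74.9%, 75.8% and 63.2% lower and medians of -0.13, -0.15 and -0.09, against -0.24, -0.25 and -0.23 for the 72 members above that level. Intervals lay wholly below those of Day 0 for 43, 41 and 37 members, against 2.54%, 4.49% and 4.34% of all genes tested and 17%, 21.9% and 17.9% of those over 100 FPKM. From Day 1 to Day 4 the median was -0.03, with 39 members higher and 45 lower. The highest of the 4 Dox values was a median of 1.16 times the lowest over the members. A total of 75 members were below Day 0 on all 4 days of Dox, a pattern shown by 29.9% of genes over 4 FPKM and by 51.9% of genes over 100 FPKM in any of these 5 libraries. All 4 comparisons use the same Day 0 library, the shallowest of the 7, and the part of that library in the difference was not tested; values that do not use it are given for the mutant line below.

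**Figure D2:**
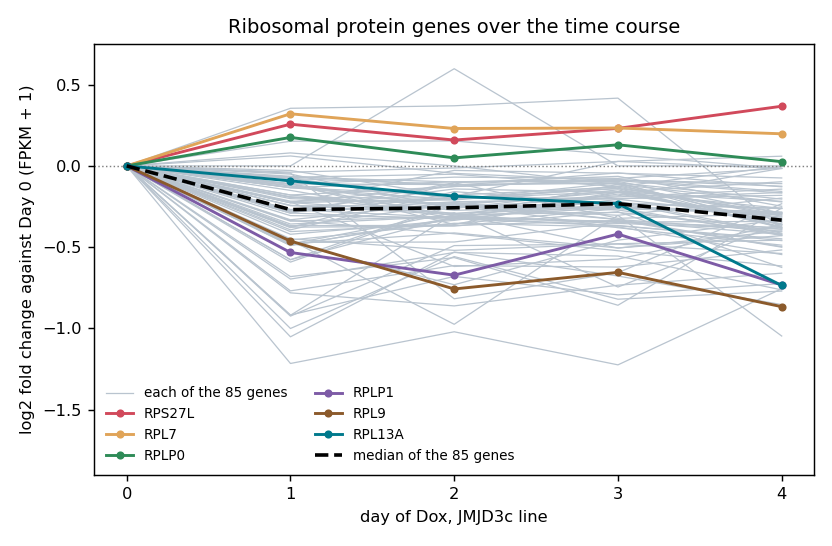
Log2 fold change against Day 0 (FPKM plus 1) on each day of Dox in JMJD3c-hESCs, 1 line per member, with 6 members in color and the median of the 85 as a dashed line. The median is already at -0.27 on Day 1 and at -0.33 on Day 4, RPS27L, RPL7 and RPLP0 lie above 0 on every day, and RPL13A departs from the median between Days 3 and 4.

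The 4 members higher at Day 4 than at Day 0 were RPS27L, RPL7, RPL41 and RPLP0. RPS27L, a paralog of RPS27 known as a p53 target (ENSG00000185088, chromosome 15, 63445539 to 63450220), had 66.2, 79.2, 74.0, 77.8 and 85.6 FPKM on Days 0 to 4, a log2 fold change of 0.37 at Day 4. It was higher than Day 0 on all 4 days, but its intervals at Day 0 (44.9 to 87.6 FPKM) and Day 4 (64.8 to 106 FPKM) overlapped. RPL7 (ENSG00000147604, chromosome 8, 74202519 to 74208024) had 341, 426, 399.8, 401 and 391 FPKM on Days 0 to 4, a log2 fold change of 0.20 at Day 4 with overlapping intervals. RPL41 and RPLP0 had log2 fold changes of 0.06 and 0.03, and RPS3A came next at -0.00, with 473 FPKM at Day 0 and 472 FPKM at Day 4.

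The 5 most negative log2 fold changes at Day 4 were those of RPS27, RPL9, RPS25, RPL22 and RPS29. RPS27 had 5.08, 3.43, 2.09, 3.92 and 1.94 FPKM on Days 0 to 4, with intervals that both began at 0, so little can be read from its -1.05. RPL9 (ENSG00000163682, chromosome 4, 39455744 to 39460568), with 43.0, 31.0, 25.1, 27.0 and 23.2 FPKM on Days 0 to 4, had a log2 fold change of -0.87 and overlapping intervals. RPS25, a small-subunit protein used by viral internal ribosome entry sites (ENSG00000118181, chromosome 11, 118886422 to 118889400), had 245, 117, 169, 153 and 135 FPKM on Days 0 to 4, a log2 fold change of -0.85 at Day 4. RPS29, a zinc-binding small-subunit protein (ENSG00000213741, chromosome 14, 50043390 to 50053094), had 2967, 1831, 2051, 2020.0 and 1749 FPKM on Days 0 to 4. Its log2 fold change at Day 4 was -0.76, and its Day 0 interval of 2685 to 3250.0 FPKM was apart from the Day 4 interval of 1568 to 1930.4 FPKM. RPS25, RPL22 and RPS26 had their lowest or second lowest value of the time course at Day 1, whereas RPL9 was lowest at Day 4. The FPKM of RPS25 and RPL22 lay above its own interval in all 5 JMJD3c libraries.

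Few members passed a 2-fold rule (a ratio over 2 where the first sample exceeded 4 FPKM, or under 0.5 where the second did). Those below 0.5 numbered 3 at Day 1 (RPL22, RPS25 and RPS26), 2 at Day 2 (RPS27 and RPS26), 2 at Day 3 (RPS26 and RPL36A) and 1 at Day 4 (RPS27), and 0 were above 2 on any day. Among all genes tested, 3.27%, 4.24%, 4.48% and 7.56% were below 0.5 and 3.48%, 3.9%, 4.73% and 5.87% above 2 on these days, so at this fold the members' counts lay near or below the background. At the smaller ratio of 0.8, 44 members were lower at Day 4, against 30.4% of all genes tested, and 1 member, RPS27L, passed the reciprocal ratio upward, against 22.9%.

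Between Day 1 and Day 4, intervals were apart in the lower direction for 8 members, among them RPLP2, RPS3, RPL13A, RPL3, RPL14 and RPL7A. They were apart in the higher direction for RPL37. Over all genes tested the shares were 5.12% lower and 4.88% higher. All of these members lay over 100 FPKM, where intervals are narrower, and the share among genes of that level is not given here. No excess over genes of similar level can therefore be read from these counts. RPL13A, which is also known as a subunit of a translational silencing complex (ENSG00000142541, chromosome 19, 49990811 to 49995565), had 358, 336, 314, 304 and 214 FPKM on Days 0 to 4. The Day 4 value was lower than each of the other 6 libraries, including 306 and 291 FPKM in the mutant line. RPL37 was listed at 276 FPKM at Day 1 and 361 FPKM at Day 4, both below its 524 FPKM at Day 0.

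By position in the ribosome, the stalk members differed among themselves. RPLP0 (ENSG00000089157, chromosome 12, 120634489 to 120639038) anchors the stalk that recruits elongation factors, and had 1507, 1701, 1559, 1649 and 1534 FPKM on Days 0 to 4. RPLP1 (ENSG00000137818, chromosome 15, 69745123 to 69748255), which binds RPLP0 as a dimer with RPLP2, had 1399.6, 967, 878, 1046 and 842 FPKM. RPLP2 was listed at 1715, 1656, 1430.3, 1549 and 1318 FPKM, and RPL12, at the stalk base, at 133, 147, 148, 139 and 131 FPKM. The log2 fold changes at Day 4 were thus 0.03, -0.73, -0.38 and -0.01, and the Day 4 intervals cleared those of Day 0 for RPLP1 and RPLP2 only.

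The 5S ribonucleoprotein proteins RPL5 and RPL11, which also bind and inhibit MDM2, were both lower with intervals apart. RPL5 was listed at 1022 FPKM at Day 0 and 887 FPKM at Day 4, and RPL11 at 1859 and 1519 FPKM. Around the exit tunnel, all 8 members listed (RPL17, RPL19, RPL22, RPL23A, RPL26, RPL31, RPL35 and RPL39) were lower at Day 4, 7 of them with intervals apart, with a median log2 fold change of -0.43. RPL31 was listed at 2040.0 and 1515 FPKM at Day 0 and Day 4. RPL39, which lines the tunnel, differed least, at 257 and 254 FPKM.

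In the small subunit, RPS2, RPS3, RPS9 and RPS23, which shape the mRNA entry and the decoding centre, were all lower at Day 4 with intervals apart, and their median log2 fold change was -0.35. RPS23 was listed at 1978 and 1498 FPKM and RPS2 at 1112 and 928 FPKM. Of the mRNA exit proteins, RPS14 was listed at 2293 and 1876 FPKM with intervals apart, RPS26 at 44.1 and 25.7 FPKM and RPS28 at 12.0 and 10.03 FPKM. Of 10 genes mutated in Diamond-Blackfan anemia, a failure of red cell production, all 10 were lower at Day 4 and 6 had intervals apart, with a median of -0.31. RPS19, the first gene linked to the disease, was listed at 2381, 1779, 1888, 2066 and 1914 FPKM on Days 0 to 4. In the whole family, 80 of the 85 members were lower at Day 4 and 48 had intervals apart. Over all genes tested 55.2% were lower, and 7% were lower with intervals apart (23.8% of those over 100 FPKM). That all members of a small group were lower therefore does not set it apart from the family. None of these groups was compared with the rest of the family by a test. Each median lies within the middle 50% of all members or, for the stalk (-0.20) and the exit tunnel (-0.43), at its edge.

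**Figure D3:**
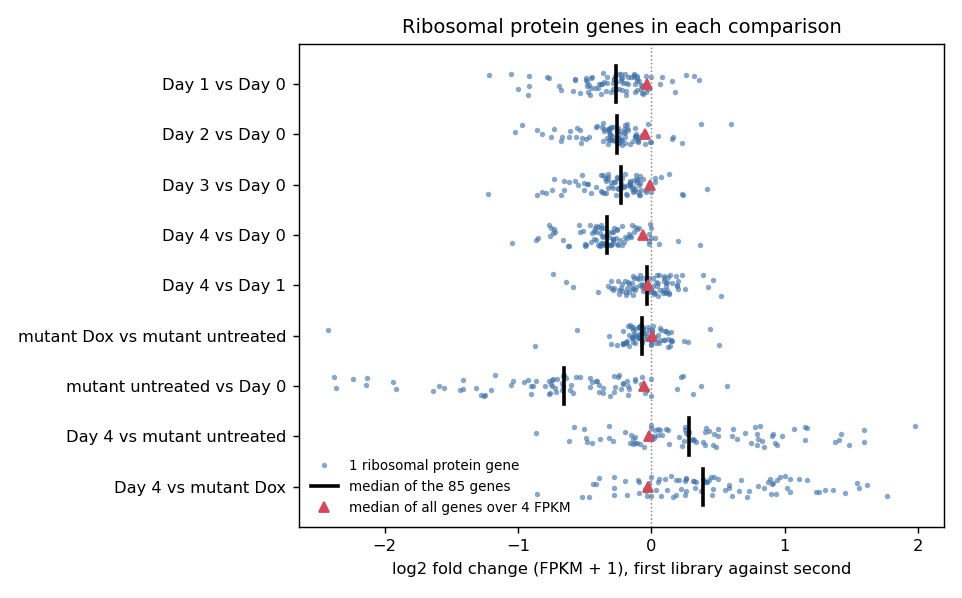
Log2 fold change (FPKM plus 1) of each of the 85 genes (points) in 9 comparisons, with the median of the 85 as a black bar and the median of all genes over 4 FPKM as a red triangle. The bar lies at -0.33 for Day 4 vs Day 0, -0.07 for Dox in the mutant line and -0.65 between the untreated lines, while every triangle lies between -0.06 and 0.00; the point at -2.43 is RPS27, which is listed at 0 in the Dox-treated mutant line.

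In the mutant line, where the demethylase is inactive, the 4-day Dox sample was set against the untreated sample. The labels do not give the day of that untreated sample. Of the 85 members, 56 were lower with Dox, 27 were higher and 2 were listed at 0 in both samples. Their median log2 fold change was -0.07, against 0.00 over all 9736 genes tested, of which 49.1% were lower. Intervals were apart for 8 members, all lower, against 1.68% lower and 1.47% higher among all genes tested and 6.27% and 4.35% among those over 100 FPKM. RPLP2 (1247 to 1007 FPKM), RPS3 (1752 to 1542 FPKM) and RPL30 (838 to 721 FPKM) were lower in FPKM as well. For RPS20 (1278 and 1274 FPKM), RPS6 (1724 and 1681 FPKM) and RPL13 (968 and 942 FPKM) the FPKM hardly differed, and the Dox-treated value lay outside its own interval. RPS27 was listed at 4.37 FPKM without Dox and at 0 with Dox, which gives no fold change, and it was the only member to pass the 2-fold rule (background 1.53%). The next most negative log2 fold changes were those of RPL39L (-0.87) and RPL26L1 (-0.56), and the positive ones included RPS28 (0.50) and RPL12 (0.28).

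The change with Dox at Day 4 was thus -0.33 at the median in the JMJD3c line and -0.07 in the mutant line, a difference that 1 library per condition does not allow to be tested. Across the 85 members, the log2 fold changes with Dox in the lines, which share no library, had a Spearman's rho of 0.04 and a Pearson's r of 0.04 without RPS27, which is listed at 0 in 1 of these libraries. With RPS27 included they were 0.08 and 0.29, so that the larger r rested on this gene. RPLP2, RPS3 and RPS27 were among the lower members in both lines, while RPLP1, at 944 and 866 FPKM in the mutant line, differed there by -0.12 only.

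The untreated lines differed more from each other, at the median, than either did from its Dox-treated sample. In the untreated mutant line 78 members were lower than at Day 0 of the JMJD3c line and 6 were higher, with a median log2 fold change of -0.65 and a standard deviation over members of 0.64, against 0.24 at Day 4. Over all genes tested the median was -0.05. Intervals were apart for 57 members lower and 4 higher, against 6.93% and 6.79% of all genes tested, and 32.6% and 15.7% of those over 100 FPKM. The 2-fold rule was passed by 21 members, all lower, against 7.01% lower and 2.78% higher among all genes tested. They included RPL22, RPS25, RPS26, RPL6, RPS29, RPL23, RPL38, RPS15, RPL36, RPS28, RPL28, RPL31, RPL37A, RPS21, RPL37, RPS23, RPS18 and RPL35. Over all 7 libraries, 51 members were lower in both mutant libraries than in every JMJD3c library, a pattern shown by 15.6% of genes over 4 FPKM and by 29.7% of those over 100 FPKM. The 5 members higher in both mutant libraries were RPS2, RPS3A, RPSA, RPL12 and RPS7, against 14.8% of genes over 4 FPKM and 22.1% of those over 100 FPKM.

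Among the most negative log2 fold changes between the untreated lines were those of RPL22, RPS26 and RPS29, at -2.37, -2.24 and -2.14, though not all members at this end are named. RPL22 had 581 FPKM at Day 0 and 112 FPKM in the untreated mutant line, and RPS29 had 2967 and 671 FPKM. RPL12 had the most positive value, 0.57, with 197 and 239 FPKM in the mutant line, followed by RPSA at 0.37 and RPS3A, which has a role in initiation, at 0.31.

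The difference between the lines went with the length of the coding sequence. For the 84 members with an annotated coding length (GENCODE release 44 on GRCh37), Spearman's rho of length and log2 fold change was 0.53 between the untreated lines (Pearson's r 0.43), 0.25 at Day 4 vs Day 0 (r 0.12) and 0.14 for Dox in the mutant line (r 0.17). The 11 members under 300 bases had a median of -1.41 between the untreated lines, the 17 from 300 to 400 bases -0.90, the 23 from 400 to 500 bases -0.65, the 17 from 500 to 700 bases -0.25 and the 16 of 700 bases or more -0.28. For all members of 400 bases or more the median was -0.41. Other genes over 4 FPKM leaned the same way by less, with medians of -0.44, -0.26, -0.14, -0.13 and -0.02 in these classes. The mitochondrial genes MT-ATP8 and MT-ND4L, with coding lengths of 204 and 294 bases, were listed at 6645 and 4165 FPKM at Day 0 and at 1303 and 1305 FPKM in the untreated mutant line. At Day 4 vs Day 0 the medians of the members in the 5 length classes lay closer together, from -0.39 in the shortest to -0.25 in the longest, with other genes at -0.15 to -0.03. Whether the length of the transcripts or the preparation of the libraries took part in these differences was not tested.

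Between the Dox-treated lines, JMJD3c-hESCs at Day 4 had the higher value for 65 members and the lower value for 18, with a median log2 fold change of 0.39, against -0.02 over all genes tested. Intervals were apart for 47 members higher and 6 lower, against 7.57% and 8.67% of all genes tested, and 26.9% and 21.4% of those over 100 FPKM, where 44 and 6 of these members lay. The 15 members above a ratio of 2 (background 6.56%) included RPL37A, RPS29, RPL41 and RPS27L, and 14 of the 15 had a coding length below 500 bases. Most members are below that length, with a median of 454.5 bases over the 84 members with a coding length. Here the coding length had a Spearman's rho of -0.63 with the log2 fold change (r -0.55), and the median was 0.23 for members with a coding length of 400 bases or more. Set against the untreated mutant line instead, Day 4 had a median of 0.28, with 60 members higher and 23 lower. Over all genes tested in that comparison the median was -0.02, with 48.4% higher and 51.6% lower. The direction of the family's difference at Day 4 therefore depended on which untreated sample was the reference, being lower than Day 0 and higher than the untreated mutant line.

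The 7 paralogs of the L type were at far lower levels than most members. RPL22L1, which replaces RPL22 in some ribosomes, was listed at 145, 104, 86.8, 105 and 115 FPKM on Days 0 to 4 and at 110.1 and 111 FPKM in the mutant line. RPL22 (ENSG00000116251, chromosome 1, 6241329 to 6269449) had 581, 289.8, 394, 328 and 340.1 FPKM on those days, with 112 and 110.3 FPKM in the mutant line. RPL22 was thus the higher of the pair in every JMJD3c library and nearly equal to its paralog in the mutant line. Both start with a pyrimidine run, as printed above. RPS27L, without such a run at its listed start, was listed at 47.8 and 41.2 FPKM in the mutant line, below all 5 values of the JMJD3c line. It lay above the listed value of RPS27 in all 7 libraries. The level of RPS27, which shares its name with annotated pseudogenes, is uncertain, so the true order of this pair cannot be read.

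RPL39L, a testis-enriched paralog of RPL39, was listed at 28.5, 36.7, 37.1, 38.3 and 21.5 FPKM on Days 0 to 4 and at 24.9 and 13.2 FPKM in the mutant line without and with Dox. It was lowest in the Dox-treated sample at Day 4 in both lines, with overlapping intervals at Day 4 vs Day 0. RPL26L1 was listed at 28.0 FPKM at Day 0 and 14.98 to 17.4 FPKM on Days 1 to 4, and RPL7L1, which is known for a role in ribosome assembly, at 33.4 to 56.6 FPKM over the 7 libraries. At Day 4, 5 of the 7 paralogs were lower than at Day 0, 1 was higher and 0 had intervals apart. The lower ones include RPL3L, whose values of 0.284 and 0 FPKM lay under the cutoff of 4 FPKM. The 7 counterparts of the paralogs (RPL3, RPL7, RPL10, RPL22, RPL26, RPL39 and RPS27) had 6 lower, 1 higher and 3 with intervals apart. The background shares were 55.2% lower and 7% lower with intervals apart, or 23.8% apart for genes over 100 FPKM. RPL22L1 was the only paralog above 100 FPKM in these samples, and RPS27 the only counterpart below. Because intervals are wider at low levels, the counts of 0 and 3 do not set the paralogs apart.

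Members with and without the TOP motif were set side by side, and the difference between them was not tested. At Day 4 vs Day 0, 45 of the 47 members with the motif were lower, with a median log2 fold change of -0.32, and 18 of the 20 matched members without it were lower, with a median of -0.38. In the whole family 80 of the 85 were lower, against 55.2% of all genes tested and 62.8% of the other genes over 100 FPKM. These counts therefore set neither group apart from the family. At Day 1 the medians were -0.24 and -0.34, at Day 2 -0.25 and -0.30, at Day 3 -0.20 and -0.35, and for Dox in the mutant line -0.07 and -0.06. The median was thus more negative without the motif on each day of Dox in the JMJD3c line. These days share the Day 0 library and are not separate observations. The 20 members without the motif include the paralogs RPL10L, RPL26L1, RPL7L1 and RPS27L, while the paralog RPL22L1 has it. Only listed starts were read, so a member without the motif there may still have a TOP tract. RPL9 and RPS29, among the members with the largest differences, lack the motif at their listed starts, as does RPS27L, and RPL22 has it.

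Other genes of translation were followed in 4 lists. Their counts are read against all genes tested and against the other genes over 100 FPKM. Among all genes tested, 54.2% were lower at Day 1 (median log2 fold change -0.03) and 55.2% at Day 4 (median -0.06). Among the other genes over 100 FPKM, 74.9% were lower at Day 1 (median -0.13) and 62.8% at Day 4 (median -0.12). Day 4 intervals lay wholly below those of Day 0 for 7% of all genes tested and wholly above for 5.15%. For all genes over 100 FPKM, family members included, these shares were 23.8% and 12%. The lists of ribosome biogenesis and initiation factors hold genes on both sides of 100 FPKM, so neither share matches them by level. Of 19 genes outside the family that are known for a TOP tract, 17 were lower at Day 4 and 2 higher, 10 and 1 of them with intervals apart, and their median log2 fold change was -0.22. EEF1A1, which brings aminoacyl-tRNA to the ribosome, was listed at 1928 FPKM at Day 0 and 1748 FPKM at Day 4, and EEF1B2, its exchange factor, at 119.8 and 63.4 FPKM. FAU, which encodes a ribosomal protein as a fusion outside the naming rule, was listed at 747 and 515 FPKM. TPT1, an exception, was listed at 1236 FPKM at Day 0 and 1483 FPKM at Day 4. Between the untreated lines the median of the 19 genes was -0.11, with 8 higher and 11 lower, against -0.65 for the ribosomal protein genes.

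Of 50 genes of ribosome biogenesis, 46 were lower at Day 1 (median log2 fold change -0.27) and 37 at Day 4 (median -0.17), with 10 lower and 0 higher with intervals apart at Day 4. FBL, the methyltransferase of ribosomal RNA, was listed at 758 FPKM at Day 0, 543 FPKM at Day 1 and 478 FPKM at Day 4, and BOP1, a factor of large-subunit assembly, at 45.3, 30.3 and 24.9 FPKM. In contrast to the ribosomal protein genes, 33 of the 50 were higher and 17 lower in the untreated mutant line than at Day 0, with a median of 0.15 (45.8% higher and a median of -0.05 over all genes tested), and NCL, nucleolin, was listed at 1163 FPKM there against 1073 FPKM. For Dox in the mutant line their median was 0.06, with 32 higher and 18 lower, against 50.9% higher over all genes tested.

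Of 20 genes of RNA polymerase I and its factors, 18 were lower at Day 1 (median -0.32) and 13 at Day 4 (median -0.08), where 0 had intervals apart. The Day 4 values lay close to those of all genes tested. POLR2L, a short shared subunit, was listed at 100.3 FPKM at Day 0, 74.4 FPKM at Day 4 and 24.97 FPKM in the untreated mutant line. Of 25 translation initiation factors, 22 were lower at Day 1 (median -0.13) and 17 at Day 4 (median -0.14), 6 of these with intervals apart and 1 higher. Both medians and the Day 4 count lay near those of the other genes over 100 FPKM. EIF3D was listed at 191 and 102 FPKM at Day 0 and Day 4, and EIF2S1, the alpha subunit of eIF2, at 40.1 and 58.6 FPKM.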

How the data were processed

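FPKM values of 7 RNA-seq samples, 1 library per condition, were analysed. The authors made directional libraries from poly(A) RNA, sequenced single-end reads on a MiSeq, mapped them to hg19 with TopHat2 2.0.13 and calculated gene-level FPKM with Cufflinks 2.1.1; the deposited FPKM came with 95% bounds. The annotation and strand setting are not given in the sources used here. FPKM favors no gene length in principle, but short transcripts depend on the fragment sizes of a library.

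Samples were grouped by their labels. Log2 fold changes used FPKM plus 1, and backgrounds were taken over chromosome rows with more than 4 FPKM in either sample. Members and lists were chosen with earlier results of these data known. Genes named are the 5 highest and 5 lowest members, the 5 largest and smallest changes at Day 4 vs Day 0, the 3 largest and smallest in the mutant line, members past the 2-fold rule and examples of each list; other names were chosen after their values were seen. Depth was estimated from 42 one-exon genes and a fragment length of 200 bases in the untreated mutant line, and from ratios of low values elsewhere. The calculations ran in Python 3.11.15 (pandas 2.3.3, numpy 2.4.6; figures in matplotlib 3.10.9) and were tested on simulated data. Alternatives changed the pseudocount, scaling, members and reference. Some genes that the rule would name are not reported here. ChIP-seq was not analysed here.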

Additional observations from a re-analysis of the deposited data

How the results depend on the processing

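With the untreated mutant line as the reference, the median at Day 4 turned from -0.33 to 0.28. The members with intervals apart went from 0 higher and 48 lower to 48 higher and 8 lower. The share of all genes with intervals apart is not given for that reference, so these 2 counts have no background beside them. The cause of the turn was not tested. For members with a coding length of 400 bases or more, the median between the untreated lines went from -0.65 to -0.41 and that between the Dox-treated lines from 0.39 to 0.23, an alternative chosen after seeing the data, as were those of a mean of 100 FPKM or more and of FPKM inside its interval. Including the median of 0.23, 128 values were counted as unchanged. For medians and summed levels this meant the same direction and a shift within a limit of 0.17 to 0.19 log2 units. That limit is larger than the mutant-line median of -0.07 itself, so little can be read from it there. Upper quartile scaling took the Day 4 median to -0.25. It took the members lower with intervals apart from 48 to 37, which was also counted as unchanged. Leaving out a library was not possible with 1 library per condition. No paired analysis was possible because each condition had 1 library. The depth of the libraries limits what can be read for members below about 10 FPKM, such as RPS27 and RPL36A.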

Other observations

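RPL36AL, a paralog of RPL36A that the naming rule leaves out, was listed at 221, 189, 167, 172 and 176 FPKM on Days 0 to 4 and at 108 and 126 FPKM in the mutant line, while RPL36A itself was listed at 2.61 to 5.53 FPKM. The read-through row RPL36A-HNRNPH2, which overlaps RPL36A, was listed at 13.9 FPKM at Day 1, 3.81 FPKM at Day 3 and no more than 0.169 FPKM in the other 5 libraries. The read-through row RPS10-NUDT3 was listed at 18.2 to 35.4 FPKM, and RPS10 at 149 to 229 FPKM. The loci of 19 members overlap another expressed row, and how reads were assigned there was not tested.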
